A study of Homo sapiens with 6 samples.

Results

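PC-9 is a non-small cell lung cancer line whose label gives its genotype as EGFR mutant, and the data described here are its response to erlotinib, a small molecule that blocks the kinase of the epidermal growth factor receptor (EGFR). The comparison uses 2 of the 6 arrays of the study, chosen by their titles: PC-9 control and PC-9 treated with 0.01 µM erlotinib for 6 h. All 17687 named genes of the array were compared. Of the other arrays, a control and an erlotinib array (0.01 µM, 6 h) come from HCC827, which is also labelled EGFR mutant, and a control and an EGF array (6 h, with the dose written as 100 µg/ml) come from H322, labelled wild-type. The growth protocol mentions TNFa, tumour necrosis factor alpha, in the medium of all 3 lines. It does not say whether the controls received it, and if they did not, its effect and that of erlotinib cannot be told apart. Each condition has 1 array, so no value below has a replicate check and no difference was tested. Nothing in the labels tells how many cultures stand behind an array.

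EGFR is a receptor tyrosine kinase, and mutations that keep it active drive growth in many lung adenocarcinomas. One branch of its signal runs through RAS, RAF and MEK to the kinase ERK, which turns on AP-1 and ETS transcription factor genes, the cyclin D1 gene and a set of inhibitors that feed back on the same branch. Another runs through PI3K and AKT, which hold FOXO transcription factors out of the nucleus. FOXO factors act on genes of growth arrest and cell death when AKT is not active.

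Median intensity was 157 on the PC-9 control array and 156 on the erlotinib array, and the arrays correlated at 0.991 across genes (Pearson, log2). Background was read from the 612 negative control probe sets, whose 95th percentile was 161 and 163. Signals at or below it are called dim. On the control array 49.8% of the genes lay above it, and 49.6% did so on the erlotinib array. Both PC-9 signals of 8538 genes were above it, 503 genes had 1 dim signal, and both signals of 8646 genes were dim. The epithelial genes EPCAM, CDH1, KRT7, KRT8, KRT18, KRT19 and MUC1 were above background on both arrays. The lung lineage genes NKX2-1, NAPSA and SFTPB were dim on both, with signals of 54.5 and 67.9, 21.0 and 19.4, and 13.4 and 17.2, so the arrays give the line an epithelial but not a lung-specific profile by these markers. Of the 5 measured leukocyte markers 1 was above background (ITGAM), as was 1 of 5 for fibroblasts (COL1A2) and 1 of 5 for endothelium (CDH5). Summed over its measured markers, the leukocyte list had the highest of these signals, at 424 in control and 452 with erlotinib. The mesenchymal genes VIM, CDH2, FN1 and SNAI2 were above background, and ZEB1 and ZEB2 were dim. The targeted receptor is inhibited as a protein, so its transcript checks no label: EGFR had 6545 in control and 6705 with erlotinib.

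A gene is called higher or lower here where its signals differed at least 2-fold after dim signals were raised to the 95th percentile of the negative controls. By this rule 131 of 17687 genes (0.741%) were higher with erlotinib in PC-9 and 265 (1.50%) were lower, with a median fold of 2.29 and 2.46. The shares of 0.741% and 1.50% are those to set beside each count of called list members below. The median change was 0.01 on the log2 scale over all genes, and also 0.01 over the genes above background on both arrays. At least 4-fold changes were seen in 5 higher and 46 lower genes, and at least 8-fold changes in 0 and 11. Thresholds pass through a dense range: BCR, SH3BP2 and PAK1IP1 lay just inside on the lower side at -1.0 on the log2 scale, with LRRC8B, NF2 and SEH1L just outside at -1.0, -1.0 and -0.99. On the higher side AJUBA, SNAI2 and KIAA1217 were just inside at 1.0, and JAK1, C12orf60 and CIRSR just outside at 1.0, 0.99 and 0.99. The arrays hold bulk RNA, so less RNA per cell and fewer cells that carry it cannot be told apart.

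The negative controls themselves bear on these counts. Of the 612, 43 were above their own 95th percentile on at least 1 PC-9 array, and 12 of these (27.9%) passed the 2-fold rule, 9 higher and 3 lower, against 4.38% of the genes above background. Their 99th percentile was far higher, at 1140 in control and 1385 with erlotinib. With dim signals raised to that level, 50 genes were higher and 87 lower, and 65 of the 115 named genes called at 2-fold lost the call. Those that kept it under this and the other settings tried were, among the lower genes, FOSL1, ETV5, G0S2, DUSP5, STC1, STC2, MYC, SLC2A3, PLAT, CCN2, ERRFI1, CCND1, JUN, TRAF1, DDX21, MPZL2, IER3, BCL2L1, CDKN1A, ITGA2, PLAUR, TRIB1, HKDC1, VEGFA, EMP1, SOX9, F3, KLF6, HK1, PLAU, TRIB3 and SLC2A1. Among the higher genes they were TNFSF10, ELF3, CXCR4, LBH, PIK3IP1, BCL2L11, SLC29A3, CLEC2B, YPEL3, GBP2, TXNIP, ERBB3, BAMBI, KLHL24, ABLIM1 and LMO7. The other named genes among the 115 lost the call at the 99th percentile, except PSAT1 and SNAI2, which lost it under other settings only. Genes chosen outside the naming rule are not in these counts.

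**Figure D1:**
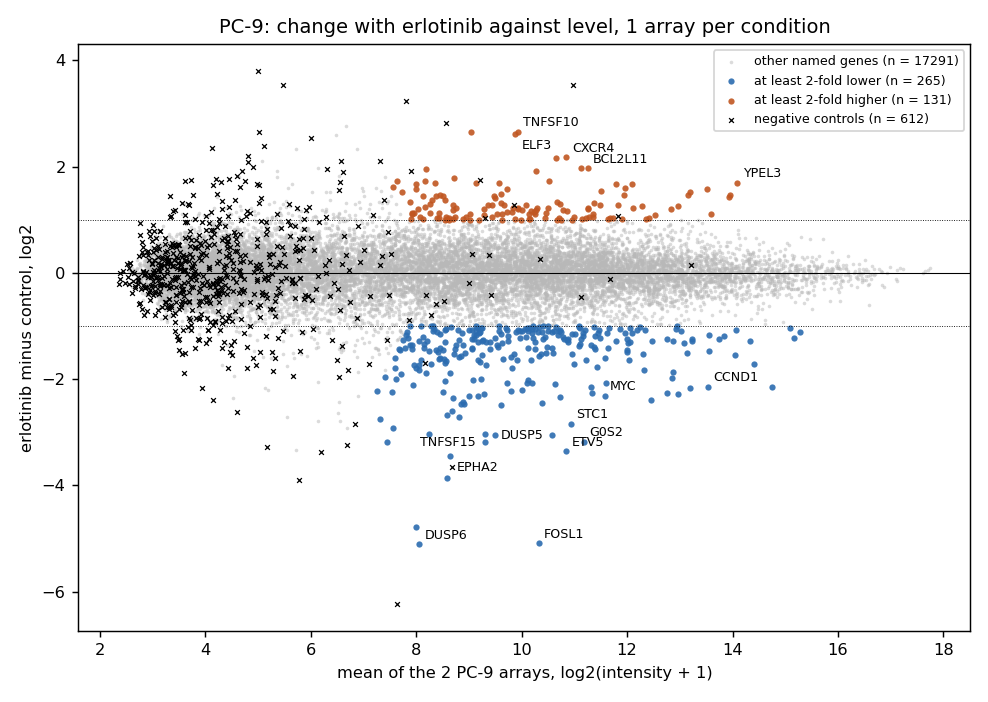
Change with erlotinib (log2 of erlotinib minus control) against the mean log2 signal of the 2 PC-9 arrays. Each point is 1 of 17687 named genes, coloured where called at least 2-fold higher (131) or lower (265), crosses are the 612 negative control probe sets, and dotted lines mark 2-fold. Dim signals are not raised here. Lower genes reach further from 0 (DUSP6 at -5.11, FOSL1 at -5.08) than higher ones (TNFSF10 at 2.67), and some negative controls lie as far out.

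Genes of the ERK branch held the lowest values in PC-9. FOSL1, which encodes the AP-1 subunit FRA-1, had a signal of 7460 in control and 219 with erlotinib, a 33.9-fold decrease. With dim signals raised this was the lowest change of all genes called. With them not raised, DUSP6 was lower, at -5.11 against -5.08 on the log2 scale. ETV5, an ETS factor gene that ERK signalling induces, had 5865 and 570, or 10.3-fold lower. Its sister gene ETV4 had 1577 and 546, or 2.89-fold lower. PHLDA1, a pleckstrin-homology protein gene, went from 2071 to 248 (8.31-fold lower), and the receptor tyrosine kinase gene EPHA2 from 1317 to a dim 119 (at least 8.05-fold lower). MYC, the growth-promoting transcription factor, had 6778 in control and 1370 with erlotinib, or 4.95-fold lower. CCND1, the gene of cyclin D1, had 25045 and 5678, or 4.41-fold lower. Among the 20 measured ERK output genes 14 were lower and 0 higher, against 1.50% and 0.741% of all genes. The list's median was -1.98 against 0.01 over all genes. Of its members 18 were above background on at least 1 PC-9 array, and 4.38% of all such genes were called in either direction. Like the other lists, it was chosen with earlier results of these data known, so these counts are a description only. In HCC827 the same list had 10 lower members and a median of -1.27, and with EGF in H322 its median was 0.60 with 2 members called higher and 0 lower.

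Other members of the output list in the lower set cover several functions. The phosphate transporter gene SLC20A1 was 4.98-fold lower (1289 and 258), the imprinted gene PHLDA2 at least 3.44-fold, the small MAF factor gene MAFF at least 3.10-fold and the potassium channel gene KCNN4 3.01-fold. PLAUR and PLAU, the receptor and the protease of the urokinase system, were 2.83-fold and 2.16-fold lower, at 6858 and 2426 for the first and 58449 and 27060 for the second. EMP1, an epithelial membrane protein gene, had 32016 and 13084, or 2.45-fold lower. EGR1, a zinc finger factor gene known as an early ERK target, was dim on both PC-9 arrays (58.3 and 18.8), so it has no fold here. In HCC827 it had 911 and 232, which is 3.91-fold lower.

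Several genes listed as inhibitors that ERK signalling raises against itself were lower in the same arrays. DUSP6, a phosphatase for ERK in the cytoplasm, had 1565 in control and a dim 44.4 with erlotinib, at least 9.57-fold lower. DUSP5, a nuclear ERK phosphatase gene, had 4394 and 526 (8.34-fold lower), and DUSP4, another of that family, 1142 and 174 (6.54-fold lower). ERRFI1, whose product MIG6 binds and blocks the EGFR kinase, had 57571 and 13034, or 4.42-fold lower. SPRY1, a Sprouty inhibitor of RAS-ERK signalling, was 4.72-fold lower (784 and 165), and the related SPRED2 and SPRED1 were 4.07-fold and 2.70-fold lower. RASA2, a RAS GTPase-activating protein gene, was 2.14-fold lower. The list also holds the early response gene IER3, which had 39602 and 11986 (3.30-fold lower). Of 20 measured members 9 were lower and 0 higher, with a median of -1.46. SPRY2 and SPRY4 were barely above background in control (187 and 166) and dim with erlotinib (66.7 and 15.4), so their decreases are only bounded, at 1.15-fold and 1.02-fold or more. DUSP1, DUSP10, DUSP14 and DUSP16 were above background on both arrays and lay between -0.59 and -0.12. DUSP10 acts on p38 and JNK kinases, so the list is wider than inhibitors of ERK itself. The list's median was -0.76 in HCC827, with 6 lower and 1 higher, and 0.17 with EGF in H322.

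**Figure D2:**
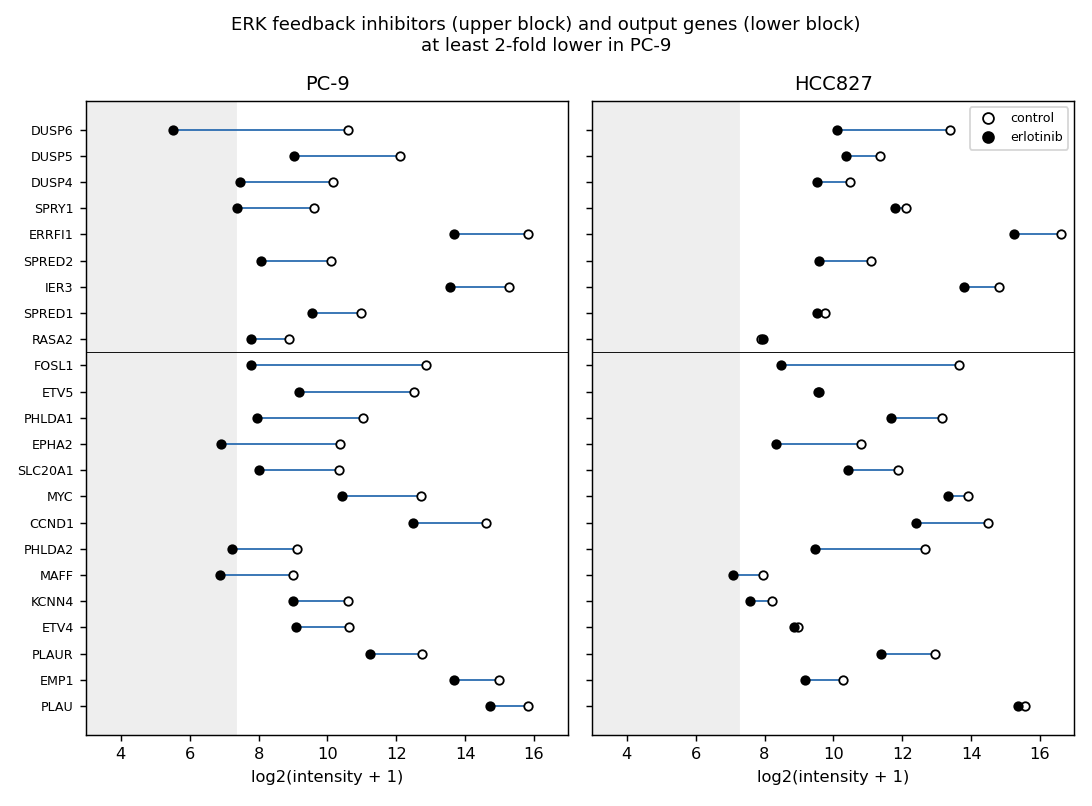
Signals (log2 of intensity + 1) of the ERK feedback inhibitors and ERK output genes called at least 2-fold lower in PC-9, on the control array (open) and the erlotinib array (filled) of PC-9 and of HCC827. Grey marks the range up to the higher of the 95th percentiles of negative controls on the line's arrays. FOSL1 spans a like distance in both lines, while ETV5, RASA2 and ETV4 have nearly the same signal on both HCC827 arrays.

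Immediate early genes, which cells transcribe without new protein synthesis after a stimulus, moved less uniformly: 4 of 23 measured were lower, 0 higher, and the median was -0.31. JUN, the partner of FOS proteins in AP-1, had 3265 and 764 (4.27-fold lower). CCN2, a secreted matrix protein gene, had 5359 and 1206 (4.44-fold lower), the zinc finger gene KLF6 17917 and 7940 (2.26-fold lower), and NR4A1, a nuclear receptor gene, was at least 2.04-fold lower. JUNB and ATF3, also factors of the AP-1 and ATF families, stood at 0.12 and 0.89, above 0.

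The promoters of some lower genes hold the letters that AP-1 binds, and 3 are shown because their genes encode a cytokine, a chemokine and a protease receptor, each called lower here. The windows are the 250 bases before a RefSeq transcript start (GRCh38.p14), 5′ to 3′ on the gene's strand, and capitals mark TGACTCA or its reverse complement TGAGTCA. That of TNFSF15 is chr9:114792531-114792780 (minus strand), that of CXCL8 chr4:73740319-73740568 (plus strand) and that of PLAUR chr19:43670170-43670419 (minus strand).
TNFSF15: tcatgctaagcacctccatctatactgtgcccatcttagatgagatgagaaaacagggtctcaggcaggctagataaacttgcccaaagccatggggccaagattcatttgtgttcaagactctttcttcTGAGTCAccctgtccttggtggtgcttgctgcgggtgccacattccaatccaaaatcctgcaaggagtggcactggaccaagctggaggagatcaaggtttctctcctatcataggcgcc
CXCL8: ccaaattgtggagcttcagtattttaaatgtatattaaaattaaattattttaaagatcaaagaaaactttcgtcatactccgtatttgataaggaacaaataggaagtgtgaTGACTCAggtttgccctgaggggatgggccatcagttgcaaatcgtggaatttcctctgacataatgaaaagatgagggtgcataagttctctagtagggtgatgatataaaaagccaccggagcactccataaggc
PLAUR: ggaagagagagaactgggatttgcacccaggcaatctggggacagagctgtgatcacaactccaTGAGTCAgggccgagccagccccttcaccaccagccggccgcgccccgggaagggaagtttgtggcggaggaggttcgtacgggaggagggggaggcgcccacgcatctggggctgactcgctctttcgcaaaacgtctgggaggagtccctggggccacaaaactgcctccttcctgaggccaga
TNFSF15, a TNF family cytokine gene, had a signal of 1909 in control and 208 with erlotinib, CXCL8, the gene of the neutrophil chemokine interleukin 8, 2029 and 650, and PLAUR the values given above. Of the 202 lower genes with a RefSeq promoter 13 hold these letters (6.44%), but so do 7 of the 106 higher genes (6.60%) and 4.66% of all 14250 genes with one.

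Ligands and receptors of the ERBB family split by gene. HBEGF, a ligand of EGFR, had 1817 and 220, or 8.22-fold lower, and TGFA, another, 589 and 238, or 2.47-fold lower. ERBB3, a kinase-poor receptor that couples EGFR to PI3K, had 5531 in control and 15872 with erlotinib, or 2.87-fold higher. EGFR itself was at 0.03. MET, the receptor gene of hepatocyte growth factor, was at -0.28 (24499 and 20123). Of 14 measured ERBB genes 1 was higher and 2 lower, and the list's median was 0.04. None of 21 genes in the list of other receptor tyrosine kinases and adaptors was called in either direction. EPHA2, at least 8.05-fold lower, is such a kinase gene but was counted in the ERK output list. The nearest were GRB7, an adaptor, at 0.85 (728 and 1311), IGF1R, the receptor of insulin-like growth factor, at 0.83 (6311 and 11258), and EPHB4 at -0.66.

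Genes under FOXO control and brakes of PI3K signalling made up the largest share of higher members in any list. PIK3IP1, which inhibits PI3K, had 1126 in control and 4421 with erlotinib, or 3.93-fold higher. YPEL3, a gene known for arresting growth, had 9657 and 31401 (3.25-fold higher), and TXNIP, which restrains glucose uptake, 6781 and 20241 (2.98-fold higher). KLHL24, TP53INP1 and FOXO4 completed the 6 higher members of 22 measured, at 2.33-fold, 2.20-fold and at least 2.23-fold. CCNG2, CDKN1B and BCL6, known FOXO targets, lay at 0.62, 0.77 and 0.73 and were not called. The list's median was 0.70, against 0.01 over all genes, and 0.741% of all genes were called higher. TRIB1, a pseudokinase gene of the list, went the other way, with 6723 and 2447 (2.75-fold lower), and the transcripts of FOXO1 and FOXO3 were at -0.02 and 0.12. HCC827 had 7 higher members, 0 lower and a median of 1.17.

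Cell death genes of the BCL2 family moved in both directions. BCL2L11, the gene of the BH3-only protein BIM that triggers apoptosis, had 1234 and 4848, or 3.93-fold higher. BMF, another BH3-only gene, was dim in control, with 157 in control and 518 with erlotinib, at least 3.20-fold higher. BCL2L1, the gene of the survival protein BCL-xL, had 4209 and 1339, or 3.14-fold lower. The remaining 12 of 15 measured members were not called, among them MCL1 at -0.16, PMAIP1 at 0.05, BAX at -0.55 and BAK1 at -0.88. TNFSF10, the gene of the death ligand TRAIL, had 386 and 2456, which is 6.35-fold higher and the largest increase called. Receptor genes of this ligand went the other way. TNFRSF10A had 1377 and 283 (4.85-fold lower), and TNFRSF10D, a decoy receptor, 1099 and 201 (5.45-fold lower). TNFRSF10B, the remaining death receptor of the ligand, was at -0.71 (2044 and 1247) and was not called. The receptor genes are close in sequence, so a signal of one may hold some of another.

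**Figure D3:**
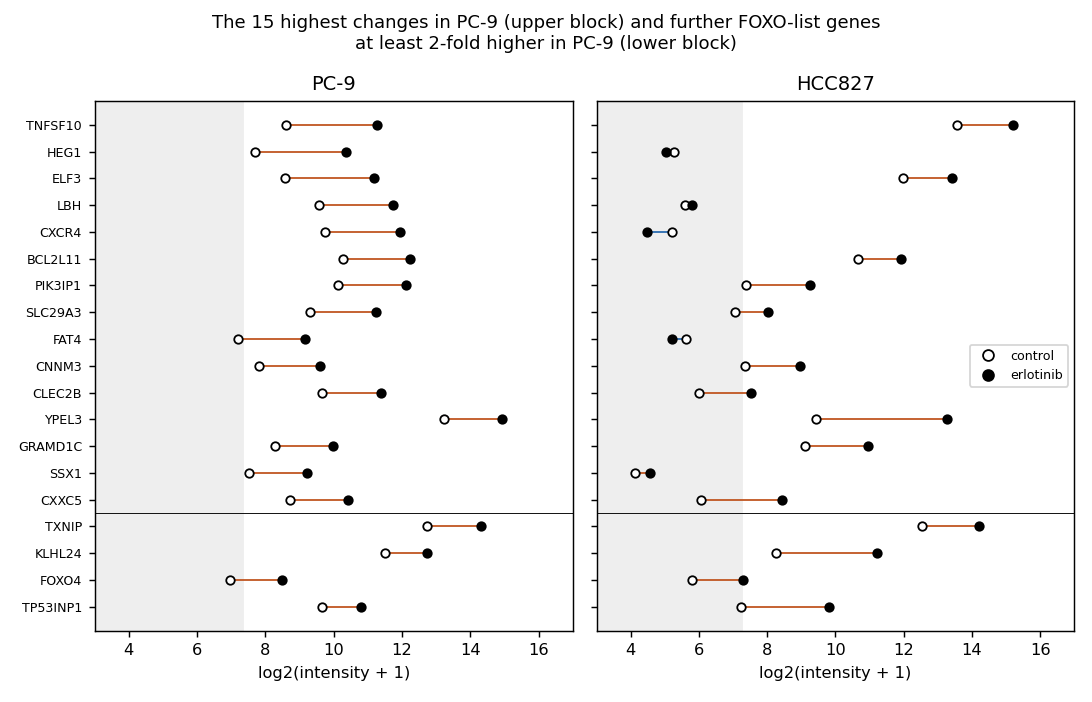
Signals (log2 of intensity + 1) of the 15 genes with the highest change in PC-9 and of further FOXO-list genes called higher, on the control (open) and erlotinib (filled) arrays of PC-9 and HCC827. Grey marks the range up to the higher of the 95th percentiles of negative controls on the line's arrays. HEG1, LBH, CXCR4, FAT4 and SSX1 lie within the grey range on both HCC827 arrays, and YPEL3 spans more in HCC827 than in PC-9.

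The promoters of 3 higher genes are shown because they hold letters that FOXO factors bind. BCL2L11 and TXNIP are described above. TCP11L2, a gene with little known function, had 2306 and 6951 (3.01-fold higher), is outside the naming rule and was chosen after its values were seen. Capitals mark TGTTTAC or its reverse complement GTAAACA in the 250 bases before the start (RefSeq, GRCh38.p14). The window of BCL2L11 is chr2:111120664-111120913 (plus strand), that of TCP11L2 chr12:106302483-106302732 (plus strand) and that of TXNIP chr1:145996580-145996829 (minus strand).
BCL2L11: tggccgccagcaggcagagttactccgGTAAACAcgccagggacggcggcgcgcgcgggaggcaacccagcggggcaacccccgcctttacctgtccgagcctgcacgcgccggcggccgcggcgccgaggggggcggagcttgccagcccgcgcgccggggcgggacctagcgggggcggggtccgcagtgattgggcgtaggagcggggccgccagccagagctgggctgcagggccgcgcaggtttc
TCP11L2: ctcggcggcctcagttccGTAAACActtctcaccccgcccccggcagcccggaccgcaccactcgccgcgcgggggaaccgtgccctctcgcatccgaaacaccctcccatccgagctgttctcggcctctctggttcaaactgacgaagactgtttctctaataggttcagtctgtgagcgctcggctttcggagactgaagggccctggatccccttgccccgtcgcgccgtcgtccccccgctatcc
TXNIP: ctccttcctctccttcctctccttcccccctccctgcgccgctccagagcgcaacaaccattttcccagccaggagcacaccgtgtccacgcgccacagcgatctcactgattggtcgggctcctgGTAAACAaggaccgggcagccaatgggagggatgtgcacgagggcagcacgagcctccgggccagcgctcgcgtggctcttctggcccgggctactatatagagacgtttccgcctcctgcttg
These letters stand in such a window for 12 of the 106 higher genes with a promoter (11.3%), for 6 of the 202 lower genes (2.97%) and for 464 of all 14250 genes (3.26%). The others are CNNM3, FOXP1, GRAMD1C, JMY, KLHDC2, MRTFA, OTUD1, PTCH1 and TFDP2. A called gene has to be above background on at least 1 PC-9 array, and of the 7594 such genes with a promoter 3.12% hold the FOXO letters and 4.16% the AP-1 letters. In all 13 motifs were searched on both strands, counting a gene with several starts if any window matched, and no share was tested. The shares that follow are for higher genes, lower genes, genes above background and all genes, in this order. CATTCC, known from TEAD factors, was in 22.6%, 9.90%, 12.5% and 13.5%, and the kappaB motif in 14.2%, 20.8%, 15.4% and 14.5%. TTCNNNGAA, known from STAT factors, was in 11.3%, 6.93%, 7.51% and 7.91%. The E-box CACGTG was in 9.43%, 11.9%, 11.5% and 9.68%. TGACGTCA of the cyclic AMP response element was in 5.66%, 3.96%, 3.83% and 2.76%, and GTGACGT, which overlaps it, in 8.49%, 6.44%, 7.32% and 5.42%. The ETS letters CCGGAAGT were in 4.72%, 5.45%, 9.09% and 5.81%, GGAAGT within them in 27.4%, 27.2%, 29.9% and 26.1%, and AGGAAG, which overlaps these, in 38.7%, 37.6%, 34.9% and 35.0%. The GC box CCGCCCCC was in 29.2%, 32.2%, 31.1% and 25.9%, and the CArG box in 2.83%, 1.49%, 1.55% and 1.64%. A match shows only that the letters are there.

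Among cell cycle genes, CDKN1A, the gene of the CDK inhibitor p21, had 7357 and 2360, or 3.12-fold lower, alongside the decrease of CCND1. CDK4, CDK6 and CCND3, the kinases and another D cyclin of that step, were at -0.23, -0.41 and -0.31. None of 24 G1/S and replication genes was called, and their median was -0.12. Of the 18 above background on at least 1 array, 10 lay above 0 and 8 below, with a median of 0.05. The members furthest from 0 were all below it: CCNE1, the gene of cyclin E1, was at least 1.93-fold lower (314 and a dim 137), and CDC6 and RRM2, of origin licensing and nucleotide supply, were both 1.73-fold lower. Of 23 measured G2/M genes 22 lay above 0, with a median of 0.57 against 0.01 over all genes. Only BUB1, a checkpoint kinase gene (811 and 1855, 2.29-fold), and ASPM, a spindle gene (969 and 1986, 2.05-fold), were called. The remaining members reached at most 0.89 (CENPE), and KIF23 was at 0.00. The list had a median of 0.59 in HCC827 and -0.15 with EGF in H322.

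Genes for making ribosomes had a median of -0.69, with 4 of 20 measured lower and 0 higher. The nucleolar helicase gene DDX21 had 14690 and 3714 (3.95-fold lower), and LYAR, NOP16 and NOP58, which act in ribosome assembly, were 3.09-fold, 2.66-fold and 2.16-fold lower. The abundant nucleolar genes NPM1, NCL and FBL stood at 0.15, -0.17 and 0.06. In the MYC network MYC was the called member of 11 measured, and MXI1, a MYC antagonist gene, was at 0.83 (1652 and 2947). HCC827 had 10 lower members of the ribosome list and a median of -1.01. Its MYC signal was 1.48-fold lower (15245 and 10330).

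Glucose uptake genes were lower at the transporter and hexokinase steps. SLC2A3, the gene of the glucose transporter GLUT3, had 17697 and 3643 (4.86-fold lower). The near-identical paralog SLC2A14 may add to this signal. SLC2A1, the gene of GLUT1, had 50027 and 24560 (2.04-fold lower), and HK1, a hexokinase gene, 4141 and 1900 (2.18-fold lower). The 16 other measured members were not called, with ALDOA at 0.03, GAPDH at 0.05 and LDHA at -0.12, and the list's median was -0.23. HKDC1, a hexokinase-domain gene, had 3526 and 1357 (2.60-fold lower). In the list of amino acid and ATF4 genes STC2, a secreted glycoprotein gene, had 12833 and 2442 (5.25-fold lower), TRIB3 and PSAT1 were 2.05-fold and 2.01-fold lower, and NUPR1, a stress gene, was 2.32-fold higher. ELOVL6, which lengthens fatty acids, was 3.13-fold lower (1019 and 325) and the other 15 of 16 lipid synthesis genes were not called.

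Cytokine and immune genes were mixed. CD274, the gene of the checkpoint ligand PD-L1, had 964 in control and a dim 150 with erlotinib, at least 5.90-fold lower. PDCD1LG2, the gene of PD-L2, had 1904 and 409 (4.64-fold lower), and CEACAM1, an adhesion molecule that also acts as a checkpoint ligand, 817 and 346 (2.36-fold lower). All 10 checkpoint genes above background on at least 1 array were below 0, among them NT5E at -0.96 and PVR at -0.68. The median over the 15 measured was -0.43, against 0.01 over all genes. LIF, a cytokine of the interleukin 6 family, was 5.52-fold lower (1081 and 195), and IL6 itself 2.13-fold lower (1113 and 522). PTGS2, the gene of cyclooxygenase 2, was 2.70-fold lower, and the adenosine receptor gene ADORA2B had 870 and a dim 105 (at least 5.32-fold lower). SOCS2, a feedback gene of JAK-STAT signalling, was 2.46-fold lower.

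The list of NF-kappaB genes, which TNF alpha is known to induce, had 1 of 17 measured members called. Its members BIRC3, TRAF2, SOD2, TNF and BCL3 were not measured. CXCL8, IL6 and PTGS2, called lower above, stand in other lists, so this count does not cover all genes that TNF alpha can induce. TRAF1, an adaptor of TNF receptors, had 6341 and 1513 (4.19-fold lower). TNFAIP3, a brake of the pathway, was at -0.15 (31350 and 28222), NFKBIA, the gene of an inhibitor of NF-kappaB, at 0.79 (13443 and 23301), and ICAM1, an adhesion gene, at -0.26 (44367 and 37056). Interferon-stimulated genes had a median of 0.33, with 2 of 27 measured higher and 0 lower. GBP2, a guanylate-binding protein gene, had 1978 and 6290 (3.18-fold higher), and IRF9, a subunit of the interferon-activated factor, 523 and 1256 (2.40-fold higher). MHC class I and peptide loading genes had 0 of 15 called and a median of 0.05, with TAP2 at -0.57, ERAP1 at -0.38 and PSMB9 at 0.27. T cell chemokines had 0 of 11 called, CCL5 being at least 1.31-fold higher (a dim 77.0 and 212) and CXCL16 at 0.03.

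Of 13 measured angiogenic and hypoxia genes 3 were lower and 0 higher, with a median of -0.52. STC1, a glycoprotein hormone gene, had 5230 and 730 (7.16-fold lower), VEGFA, the main angiogenic factor gene, 13682 and 5452 (2.51-fold lower), and NDRG1, a hypoxia-induced gene, was also 2.51-fold lower. PLAT, the gene of tissue plasminogen activator, had 15123 and 3151 (4.80-fold lower), and F3, the gene of tissue factor, 14732 and 6201 (2.38-fold lower). With PLAU and PLAUR these are the 4 lower members of 12 measured in the tissue factor and plasminogen list, whose median was -0.46. ITGA2, a collagen-binding integrin gene, was 2.91-fold lower (28775 and 9896), the 1 integrin called of 11 measured, whose median was -0.02. Of 16 measured genes of matrix metalloproteinases and their inhibitors 1 was lower and 1 higher, with a median of -0.20. MMP9, a gelatinase gene, had 1165 and 351 (3.31-fold lower), and MMP7, the gene of matrilysin, 642 and 1482 (2.31-fold higher).

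YAP target genes gave 4 lower and 1 higher of 14 measured, and a median of -0.17. CCN2 and F3 are given above, ANKRD1, a nuclear ankyrin-repeat gene, had 775 and 258 (3.0-fold lower), and FJX1 was at least 2.05-fold lower. AJUBA, a LIM protein of the Hippo pathway, was 2.0-fold higher, and CCN1 and AXL were at -0.31 and 0.00. Among BMP genes NOG, which encodes the BMP antagonist noggin, had 1338 and a dim 47.5 (at least 8.19-fold lower), and BAMBI, a pseudoreceptor of the TGF-beta family, 1609 and 3747 (2.33-fold higher). JAG1, a Notch ligand gene, was 3.48-fold lower (1685 and 484) and HES1, a Notch target, 2.54-fold lower (684 and 268). ELF3, an epithelial ETS factor gene, had 378 and 2302 (6.09-fold higher), and CLDN3, a tight junction gene, was 2.27-fold higher. SNAI2, a repressor of epithelial genes, had 1206 and 2414 (2.0-fold higher), and SOX9, a progenitor factor gene, 10663 and 4485 (2.38-fold lower). No keratin of the 10 measured was called, with KRT16 at -0.37, KRT80 at -0.29 and KRT19 at -0.26. Of 17 measured p53 targets 2 were lower and 1 higher, with a median of -0.02. AEN, a nuclease gene, was 5.54-fold lower (1128 and 203), and CDKN1A (lower) and TP53INP1 (higher) are given above.

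**Figure D4:**
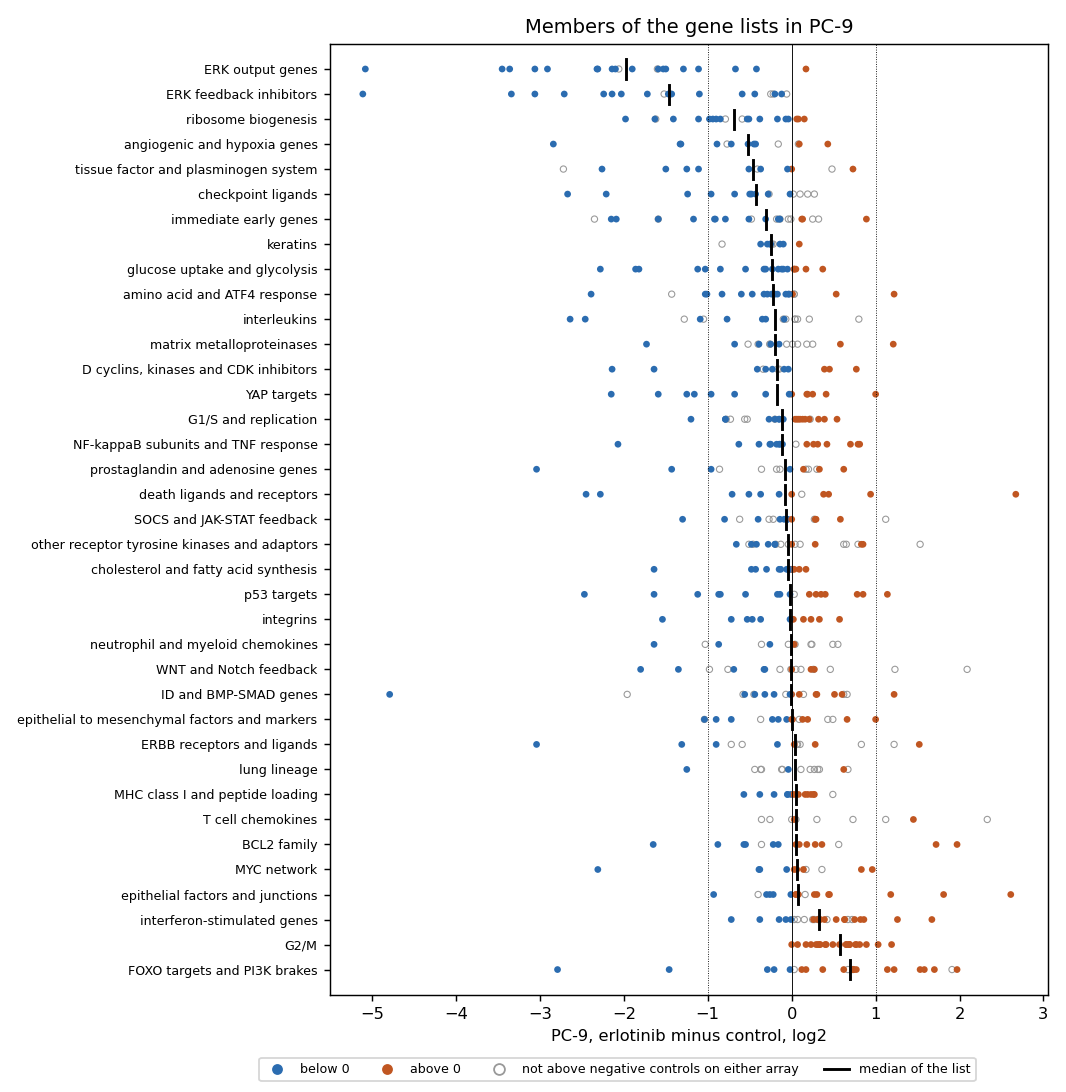
Change in PC-9 (log2 of erlotinib minus control, dim signals not raised) for the measured members of the gene lists, leaving out markers of other cell types and ordered by median (black bars). Blue points lie below 0 and orange points above it, open points are dim on both arrays, and dotted lines mark 2-fold. ERK output genes and ERK feedback inhibitors have the lowest medians (-1.98 and -1.46) and the FOXO list the highest (0.70).

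The remaining genes of the 15 lowest and 15 highest belong to no list. G0S2, which encodes an inhibitor of fat breakdown, had 6975 and 768 (9.07-fold lower), and TNFSF15 was 9.15-fold lower. The acid phosphatase gene ACP7 had 1462 and a dim 98.9 (at least 8.94-fold lower) and LONRF3, a RING finger gene, 1005 and 164 (6.09-fold lower). HEG1, a membrane mucin-like gene, had 209 and 1323 (6.31-fold higher). CXCR4, the receptor of the chemokine CXCL12, had 864 and 3918 (4.53-fold higher), and LBH, a transcription cofactor gene, 757 and 3423 (4.52-fold higher). SLC29A3, a nucleoside transporter gene, had 637 and 2395 (3.76-fold higher). FAT4, an atypical cadherin gene, was at least 3.52-fold higher, CNNM3 3.44-fold and CLEC2B, a lectin-like receptor gene, 3.32-fold. CXXC5, GRAMD1C and SSX1 were each 3.23-fold higher, and SSX1 has near-identical relatives, which makes its signal uncertain.

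Set beside HCC827, the PC-9 changes ran mostly the same way. In HCC827 383 genes (2.17%) were higher and 305 (1.72%) lower by the same rule. Of the 265 genes lower in PC-9, 102 were lower in HCC827 too, which is 38.5% of the PC-9 genes and 33.4% of the HCC827 ones. Of the 131 higher genes 55 were higher in both, or 42.0% and 14.4%, and 0 genes were called in opposite directions. Of the 235 lower genes above background in HCC827, 206 were below 0 there with a median of -0.91, where 42.6% of all genes above background were below 0. Of the 108 higher genes 105 were above 0, with a median of 1.12, where 57.4% of all were. Across the 7796 genes above background on all 4 arrays the changes of the lines correlated at 0.58 (Pearson) and 0.52 (Spearman). These are values across genes, which are not independent replicates.

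**Figure D5:**
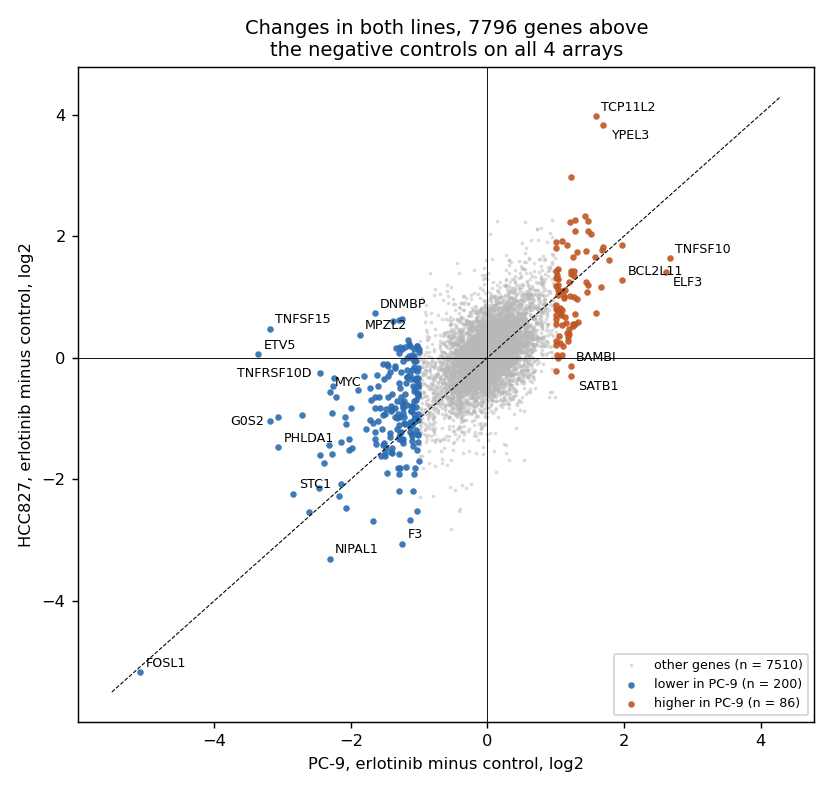
Change with erlotinib (log2) in PC-9, horizontal, against HCC827, vertical, for the 7796 genes above the negative controls on all 4 arrays. Colours mark genes called lower or higher in PC-9 and the dashed line marks equal change. FOSL1 lies on the line, ETV5 and TNFSF15 lie near 0 or above it in HCC827, and YPEL3 and TCP11L2 lie far above the line.

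Some PC-9 changes were not seen in HCC827 although the gene was measured there. With 1 array per condition the difference between lines has 0 residual degrees of freedom and was not tested. TNFSF15, 9.15-fold lower in PC-9, had HCC827 signals of 843 and 1173 (1.39-fold higher). ETV5, 10.3-fold lower in PC-9, had 742 and 772 in HCC827, and its control signal there was below that of PC-9. DNMBP, a scaffold gene of the cell cortex, was 3.15-fold lower (1713 and 544) against 1.66-fold higher (3123 and 5193). MPZL2, an adhesion gene, was 3.64-fold lower (14279 and 3919), and its HCC827 signals were 14042 and 18234, a slight increase. TNFRSF10D, G0S2, DUSP5 and SPRY1 were lower in both lines but by less in HCC827, at 1.19-fold, 2.06-fold, 1.98-fold and 1.26-fold. HKDC1, RAP1GAP2, RASSF3 and HCAR3 completed the 12 lower genes with the largest difference, with HCC827 changes of 0.60, 0.62, 0.64 and 0.81 on the log2 scale.

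On the higher side the differences between the lines were smaller. SATB1, a chromatin organiser gene, was 2.35-fold higher (940 and 2212), against 1.23-fold lower in HCC827 (211 and 172). BAMBI was 2.33-fold higher against 1.10-fold lower, and AJUBA 2.0-fold higher against 1.17-fold lower. ABLIM1, an actin-binding LIM gene, had 8431 and 18103 in PC-9 (2.15-fold higher) and 7130 and 7310 in HCC827. LMO7, also a LIM domain gene, was 2.06-fold higher, with 10333 and 10360 in HCC827. ELF3 and TNFSF10 were higher in both lines, by less in HCC827 at 2.66-fold and 3.11-fold, where their control signals were 4054 and 12024 against 378 and 386 in PC-9. CLEC2B, SLC29A3, FOXO4, RBMS3 and BCAS3 had a dim HCC827 control signal each, so their changes there are bounds or have no fold. With dim signals not raised, their log2 changes in HCC827 were 1.53, 0.94, 1.49, 1.42 and 0.67. In PC-9 they were 1.73, 1.91, 1.53, 1.22 and 1.12, so for CLEC2B, FOXO4 and RBMS3 the difference between lines comes mostly from the raising.

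Other genes had the larger change in HCC827. In all, 225 of 8408 genes comparable between the lines differed by at least 2-fold in their change, with dim signals raised. Of the 225, 73 were lower and 19 higher in PC-9 and 133 were not called in PC-9. The increase of YPEL3 was 3.25-fold in PC-9 against 14.2-fold in HCC827, that of KLHL24 2.33-fold against 7.89-fold, and that of BMF at least 3.20-fold against 8.57-fold. The decrease of F3 was 2.38-fold against 8.35-fold, and that of SLC2A1 2.04-fold against 5.78-fold.

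Part of the PC-9 response lay in genes that HCC827 did not express above background. Of the lower genes 30 were dim on both HCC827 arrays and 22 on all 4 arrays of the other lines. HBEGF, NOG, ACP7, ANKRD1 and MMP9 are among the 22. Of the higher genes 23 were dim in HCC827 and 16 in both other lines, among them CXCR4, HEG1, LBH, FAT4, SSX1 and SNAI2. SLC2A3 and CCN2 were dim on both HCC827 arrays as well. For these genes the lines cannot be compared.

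EGF in H322, the opposite treatment in cells with a wild-type receptor, gave 11 higher (0.0622%) and 9 lower genes (0.0509%). Of the 215 genes lower in PC-9 and above background in H322, 178 were above 0 there with a median of 0.28, where 51.6% of all genes above background were. Of them 5 were called higher and 0 lower. Of the 100 higher genes 76 were below 0, with a median of -0.16, where 48.4% of all were. FOSL1 was 4.59-fold higher with EGF (339 and 1559), ETV5 2.07-fold (933 and 1934) and AEN 2.13-fold (851 and 1814). ITGA2 was 2.16-fold higher (1139 and 2460). SLC2A3 was at least 2.05-fold higher. MMP7 and CLEC2B, which were higher with erlotinib in PC-9, were also higher with EGF in H322, at 2.48-fold and 2.31-fold. BATF, a factor gene of the AP-1 family chosen after its values were seen, was 2.22-fold higher in PC-9 (602 and 1337) and 2.34-fold lower with EGF in H322 (794 and 339).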

How the data were processed

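Per the labels' protocols, biotin-labelled material from total RNA was hybridised to Clarion S arrays. Per the submitters' processing notes, the authors used Affymetrix Expression Console, and the deposited values are linear intensities, 1 per probe set and array. For its version, background correction, summarisation and scaling, and for a genome build, the answer is the same: not given in the sources used here. If arrays were scaled to each other, a shift shared by most genes would be hidden.

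From these, log2(intensity + 1) was computed for 24351 probe sets. By the platform annotation 17709 had 1 gene symbol, 0 several and 6642 none. All 17709 were found in a RefSeq gene table, and no symbol changed. For the 20 genes with several probe sets the brightest was kept, which left 17687. Changes are erlotinib minus control. A signal at or below the 95th percentile of the negative controls was raised to it and its fold written "at least", and no fold is given where both were dim. The offset makes the changes of dim genes smaller.

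The genes named are the 15 highest and 15 lowest, called members of 39 gene lists (otherwise up to 3 with the largest change), the 12 in each direction that differ most from HCC827, and pathway genes. Members and lists were chosen with earlier results of these data known. Of 17687 genes 14250 matched a RefSeq promoter (GRCh38.p14). The alternatives were an offset of 16, median centring, quantile normalization, the 99th percentile, no raising of dim signals, genes above background on every array compared, and the mean over probe sets. The arrays compared are the 2 of PC-9, or all 4 of PC-9 and HCC827 for counts across these lines. Python 3.11.15, numpy 2.4.6, pandas 2.3.3 and matplotlib 3.10.9 were used. The number of arrays limits the precision.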

Additional observations from a re-analysis of the deposited data

Results flagged for a closer look

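For 11 genes the array pairs of the PC-9 and HCC827 lines moved apart: the gene was called at 2-fold in one line and lay at least 1.5-fold the other way in the other. With 1 array per condition the difference was not tested for any of them. Changes are on the log2 scale with dim signals raised.

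Of these, 5 were called lower in PC-9. DNMBP, a scaffold of the cell cortex, was at -1.65 in PC-9 and 0.73 in HCC827. HKDC1, of the hexokinase family, was at -1.38 and 0.60, and RAP1GAP2, which inactivates the GTPase RAP1, at -1.29 and 0.62. RASSF3, a RAS-association domain gene, was at -1.25 and 0.64. HCAR3, a receptor of hydroxylated fatty acids, was at -1.07 and 0.81, with 1 dim signal in each line. Of the 5, only HKDC1 kept its PC-9 call with the 99th percentile of the negative controls. Its HCC827 signals (220 and 334) lay below that percentile on both HCC827 arrays (854 and 931), so its opposite change there is not kept.

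The other 6 were called higher in HCC827 and lay below 0 in PC-9. SDCBP2, a syntenin gene, was at -0.84 in PC-9 (685 and 381) and 1.40 in HCC827 (1964 and 5171). TMC5, a channel-like membrane protein gene, was at -0.78 and 1.03, and SERPINB7, a protease inhibitor gene, at -0.76 and 1.13. TBC1D2B, a RAB regulator gene, was at -0.69 and 1.05. CPEB4, which controls polyadenylation in the cytoplasm, was at -0.59 and 1.20, and DUSP10, a phosphatase of p38 and JNK kinases, at -0.59 and 1.10.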

How the results depend on the processing

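The 99th percentile of the negative controls, in place of the 95th, moved all 4 counts by over 1.5 times: 50 genes higher and 87 lower in PC-9 (131 and 265 otherwise), 47 called in the same direction in both lines (157 otherwise) and 62 differing between lines (225 otherwise). All 50 and 87 were among the 131 and 265. Under the 6 other settings the counts lay between 112 and 164, 232 and 314, 132 and 194, and 181 and 250. No named gene changed sign, but a sign could turn only with median centring, quantile normalization or the mean over probe sets. The other settings keep the sign of a gene's change or set the change to 0. Of the 39 list medians 12 changed sign, all between -0.12 and 0.06 beforehand and between -0.17 and 0.09 afterwards. With median centring or quantile normalization 4 did (ID and BMP-SMAD, WNT and Notch, neutrophil and myeloid chemokines, integrins). Among genes above background on both PC-9 arrays 9 did, ID and BMP-SMAD again, with the G1/S, ERBB and BCL2 lists included. Of 115 named genes called at 2-fold, 48 kept the call under every setting that gave a value. Beside the losses with the 99th percentile, AJUBA, FJX1, NR4A1 and SNAI2 lost it with an offset of 16 and PSAT1 with median centring and quantile normalization. Restricting to genes above background on both PC-9 arrays moved the medians of the ERK output, WNT and Notch, and interleukin lists to -1.56, -0.51 and -0.56, since fewer genes enter. No paired analysis was possible because each condition has 1 array, and leaving one out leaves no comparison. A dim signal limits its fold to a lower bound.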

Other observations

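Some genes called in PC-9 and dim on all 4 arrays of the other lines lie outside the gene lists. Those named here were chosen after their values were seen. Of the lower ones, the metalloproteinase genes ADAMTS9 and ADAM12 had signals of 1846 and 326, and of 1873 and 867, in control and erlotinib, which is 5.64-fold and 2.16-fold lower, and ADAM19 was 2.71-fold lower. CALB2, the calcium-binding protein calretinin, had 24968 and 11923 (2.09-fold lower), and ALOX5AP, which serves leukotriene synthesis, 4409 and 1640 (2.69-fold lower). FLI1, an ETS factor gene, had 1040 and 355 (2.92-fold lower), and APOBEC3G, a cytidine deaminase gene, 3369 and 1174 (2.87-fold lower).

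Of the higher ones, LRRN1, a leucine-rich repeat membrane protein gene, had 1698 and 4951 (2.91-fold higher). PAX6, a developmental transcription factor gene, was 2.71-fold higher (545 with erlotinib), and DIO2, which activates thyroid hormone, 281 and 660 (2.34-fold higher). The PAX6 and DIO2 signals, and those of FLI1 among the lower genes, lie below the 99th percentile of the negative controls on both arrays. The erlotinib signals of ADAMTS9 and ADAM12 lie below it too, and with them raised to it neither gene would be called.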
